A study of Mus musculus with 4 samples.

Results

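The genes described here encode the axon guidance cues of the netrin, Slit and semaphorin families and their receptors. They were taken by symbol from the RNA-seq table of LLC tumors: the netrins and netrin-G proteins, the Unc5 receptors, Dcc and Neo1, the Slits, the Robos, the semaphorins of classes 3 to 7 and the plexins. Of the 47729 genes in the table, 49 rows with 47 symbols met this definition, because Ntn5 is listed in 3 rows. There were 20 semaphorins, 9 plexins, 7 rows of netrins, 6 netrin receptors, 4 Robos and 3 Slits.

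The tumors were grown from Lewis lung carcinoma (LLC) cells, a mouse carcinoma line of C57BL/6 origin, grafted under the skin of the back of C57BL/6 mice and collected on day 5. One group, LLC-Chem, came from cells transfected with pEFIN plasmids that encode murine chemerin (1-157), described in the methods as bioactive without further clipping, while the other, LLC, is labelled wild type (the methods also describe cells with an empty vector). Transfected cells were selected and collected as clones, so differences between clones and effects of chemerin cannot be told apart. Each group had 2 libraries, each made from a pool of 3 tumors, and the host mice of both groups kept their own chemerin gene.

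Expression was deposited as RPM (reads per 1000000). Recovered library sizes ran from 28470000 to 33990000 reads, and 3 reads, the smallest amount taken as detectable, correspond to 0.088 to 0.105 RPM (counting error only). Rarres2, the chemerin gene, was at 102 and 98.2 RPM in LLC and at 106 RPM in each pool labelled LLC-Chem, and was not called (adjusted p = 0.541, limma). Other genes cover 33.6% of its exon bases. Its level does not tell the groups apart, and groups are named as labelled. Of the 5 tumor cell markers listed, Vim, Krt8 and Krt18 were above 80 RPM in every pool, while Epcam was below 0.2 RPM and Cdh1 at or below 1.4 RPM.

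Netrins, Slits and semaphorins were found as cues that attract or repel growing axons, and the same ligands and receptors act on endothelial cells, leukocytes and tumor cells. Netrin 1 binds the receptors DCC, neogenin (Neo1) and the UNC5 family, and Slits bind the Robo receptors. Secreted class 3 semaphorins mostly bind a neuropilin coupled to a class A plexin, whereas Sema3e binds plexin D1 directly, and the membrane-bound classes bind plexins without a neuropilin.

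Guidance genes were among the genes that differed between the tumors, in both directions. Ntn1, Sema4g, Sema3a, Sema4c, Plxna3 and Sema5a rose in LLC-Chem tumors. Sema4d, Plxna4, Robo4, Ntn4, Sema4a, Slit3, Slit1, Sema7a, Sema6a and Plxnd1 fell. The test was limma on log2(RPM + 0.5), two-sided, with p-values adjusted over every gene averaging 1 RPM or more, and a gene was called at an adjusted p under 0.05. Of the 49 rows, 38 were tested. Among these 38, 6 were called higher (15.8%) and 10 lower (26.3%), where 9.54% of the 13694 genes tested were called higher and 13.5% lower. The median log2 fold change of the 38 was -0.41 and that of all genes tested was -0.04. Their median absolute log2 fold change was 0.75, and 0.33 over all genes. Both LLC-Chem pools lay above both LLC pools for 8 of the 38 (21.1%), and below them for 21 (55.3%). Over all genes tested these orders held for 33.1% and 39.3%. Slit1, Sema6a and Plxnb3 reached the limit for testing through their LLC level and averaged under 1 RPM in LLC-Chem tumors, so the counts over the 38 are a description. All limma calls were lost when any 1 of the 4 pools was left out, which leaves 1 group with a single pool and 1 residual degree of freedom.

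**Figure D1:**
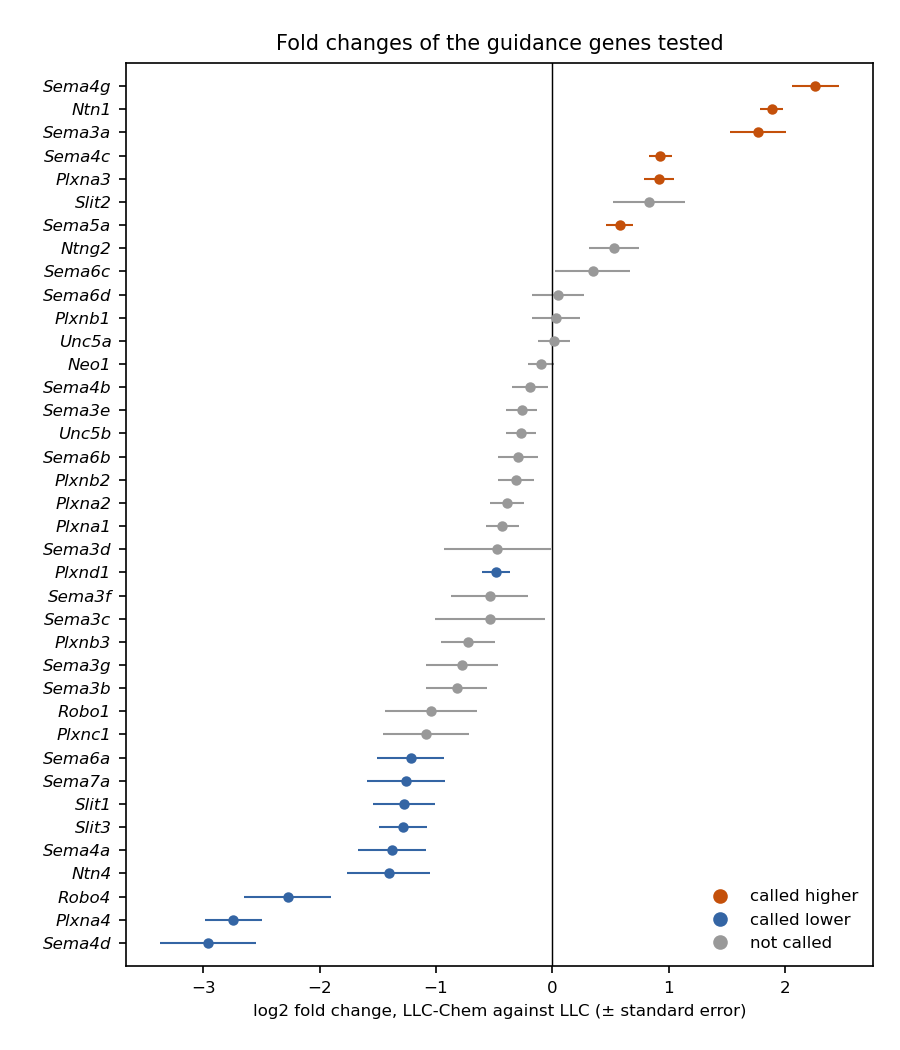
Log2 fold change of LLC-Chem against LLC (horizontal axis) for the 38 guidance genes tested, with the standard error from limma as bars, ordered by size. Orange marks the 6 genes called higher and blue the 10 called lower; Sema4d (-2.96) and Sema4g (2.26) stand at the ends.

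The promoter windows of 4 called genes are shown because they lie at the ends of this range among the genes with a single start in the table used, and because the study examined hypoxia in its tumors, and hypoxia-inducible factors bind elements with the core ACGTG or GCGTG. The sequences are from RefSeq (GRCm38.p6), 5′ to 3′ in the direction of the gene, from 250 bases before to 50 bases after the start, with matches to ACGTG or GCGTG on either strand in capitals. A CACGTG site counts on both strands. Sema4g and Sema3a rose, and Robo4 and Ntn4 fell.
Sema4g (chr19:44989094-44989393, plus strand): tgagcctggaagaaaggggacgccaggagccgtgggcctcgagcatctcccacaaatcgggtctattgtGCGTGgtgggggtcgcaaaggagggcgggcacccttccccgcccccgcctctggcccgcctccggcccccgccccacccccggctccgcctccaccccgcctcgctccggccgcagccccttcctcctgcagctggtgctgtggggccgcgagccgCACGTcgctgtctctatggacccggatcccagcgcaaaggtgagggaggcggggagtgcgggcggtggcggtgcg
Sema3a (chr5:13396534-13396833, plus strand): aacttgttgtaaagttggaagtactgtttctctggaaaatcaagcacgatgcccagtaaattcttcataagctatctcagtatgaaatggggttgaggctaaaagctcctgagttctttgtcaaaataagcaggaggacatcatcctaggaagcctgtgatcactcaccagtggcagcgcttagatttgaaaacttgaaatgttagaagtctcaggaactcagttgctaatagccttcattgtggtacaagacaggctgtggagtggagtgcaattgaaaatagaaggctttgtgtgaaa
Robo4 (chr9:37401722-37402021, plus strand): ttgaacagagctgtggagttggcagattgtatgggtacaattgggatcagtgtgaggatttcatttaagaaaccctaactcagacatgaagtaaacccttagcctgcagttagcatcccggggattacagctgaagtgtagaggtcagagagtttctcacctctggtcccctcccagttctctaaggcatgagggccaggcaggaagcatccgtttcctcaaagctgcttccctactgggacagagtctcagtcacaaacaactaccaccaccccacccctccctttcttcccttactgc
Ntn4 (chr10:93640799-93641098, plus strand): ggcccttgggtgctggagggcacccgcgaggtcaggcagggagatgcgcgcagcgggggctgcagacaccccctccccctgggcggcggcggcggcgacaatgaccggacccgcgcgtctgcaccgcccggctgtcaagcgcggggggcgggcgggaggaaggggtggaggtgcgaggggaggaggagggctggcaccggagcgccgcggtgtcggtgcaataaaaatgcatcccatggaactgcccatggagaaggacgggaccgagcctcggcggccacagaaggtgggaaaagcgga

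The Sema4g window held 2 such matches, while the other 3 windows held 0. The windows are at RefSeq starts. Those of Sema3a and Ntn4 lie wholly inside the genes as GENCODE draws them (from 13125414 and 93640681), and the sequence before these GENCODE starts was not examined. The Sema4g window, from 44989094, begins just before the GENCODE start at 44989101, so most of it lies inside the gene. The Robo4 window, from 37401722, spans the GENCODE start at 37401897. Over the 6 windows of the 5 risen genes in the table (Sema4g, Sema3a, Sema4c, Plxna3 and Sema5a), 4 held a match (66.7%). Of the 12 windows of the 7 fallen genes found there, 3 held one (25%), where Sema4a and Sema4d have several windows each. Of all 32851 windows of this length 43.8% did, and 47.6% of the windows of the tested guidance genes. Counted by gene, 4 of 5 risen genes (80%) and 3 of 7 fallen genes (42.9%) had a match in at least 1 window, beside 46.7% of all genes in the table. The windows of the risen genes had a median GC content of 69% and 21 CG dinucleotides, against 59.7% and 6 in the fallen genes and 52.7% and 7 over all windows, and these 5-base words contain a CG. A match describes the letters only, and binding was not measured. Ntn1, Plxna4 and Slit1 had no window in the table, and Sema6a was not examined.

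Among the netrins, the 2 main members moved in opposite directions. Ntn1 (chromosome 11, 68209364 to 68400823, minus strand, GRCm38), which encodes the secreted cue netrin 1, measured 179 and 169 RPM in LLC against 634 and 649 RPM in LLC-Chem tumors. The pools of each group lay close together and the groups were far apart. This was a 3.69-fold rise, from a mean of 174 ± 7.03 RPM (SD, n = 2) to one of 641 ± 10.7 RPM (SD, n = 2). The log2 fold change was 1.88 with a standard error of 0.10 (adjusted p = 0.00548, limma), and it stayed between 1.84 and 1.93 over all alternatives. With each pool left out in turn it was 1.84 to 1.92, at adjusted p from 0.0548 to 0.148 (limma).

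Ntn4 (chromosome 10, 93640681 to 93747207), a netrin of basement membranes that binds laminin, went the other way. It measured 26.5 and 57.3 RPM in LLC against 13.2 and 15.7 RPM in LLC-Chem tumors. The groups did not overlap, but the LLC pools themselves were far apart. Its log2 fold change was -1.40 (standard error 0.36, adjusted p = 0.0445, limma), and -0.86 without the second LLC pool. With TMM scaling the adjusted p of Ntn4 was 0.0554 (limma), and over all 12 alternatives that kept the 4 pools it ran from 0.000548 to 0.16 (limma, edgeR and DESeq2). Ntng2, a membrane-anchored netrin-G, measured 5.15 and 6.15 RPM in LLC and 9.59 and 7.20 RPM in LLC-Chem tumors and was not called (adjusted p = 0.126, limma). Ntng1 stood at 0.15 RPM in each pool, or 4 to 5 reads, and the 3 rows of Ntn5 at 0.

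Per kilobase of exon, Ntn1 was the highest of all guidance genes in LLC-Chem tumors, at 102 RPM per kilobase, and second in the mean of the LLC pools, at 27.7, behind Plxnb2. In the second LLC pool Sema3c (34.5 RPM per kilobase) also stood above Ntn1 (26.9). Its share of the netrin transcripts counted in this way was 77.2% and 61.4% in the LLC pools and 94.4% and 94.5% in the LLC-Chem pools. Ntn4 took 19.2% and 35.0% in LLC and 3.31% and 3.84% in LLC-Chem tumors.

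**Figure D2:**
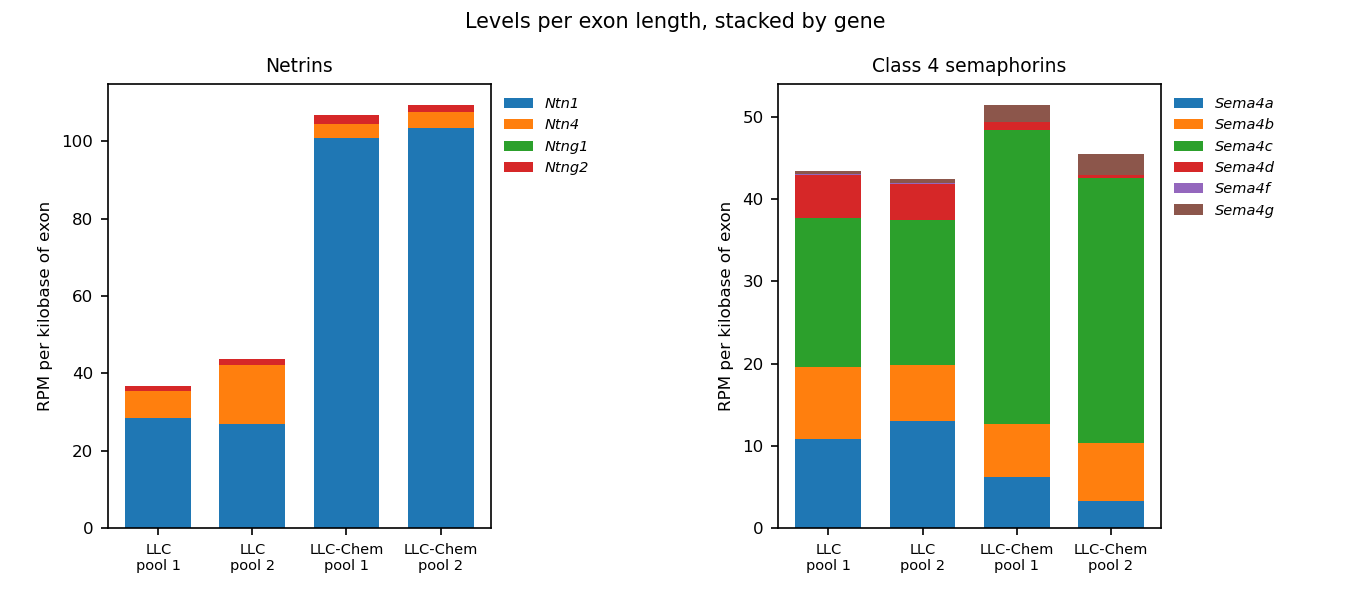
RPM per kilobase of exon, stacked by gene, in each of the 4 pools, for the netrins (left) and the class 4 semaphorins (right). The summed netrin level was 36.8 and 43.7 in the LLC pools and 107 and 109 in the LLC-Chem pools, of which Ntn1 made up 94.4% and 94.5% in the LLC-Chem pools, while the class 4 sum lay between 42.4 and 51.4 in all pools with a different make-up.

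None of the 3 netrin receptors tested was called. Neo1, which encodes neogenin, measured 107 and 123 RPM in LLC against 103 and 111 RPM in LLC-Chem tumors, and the groups overlapped (log2 fold change of -0.10 ± 0.11 SE, adjusted p = 0.533, limma). Unc5b, a repulsive netrin receptor also found on endothelial cells, measured 106 and 91.4 RPM in LLC and 87.5 and 76.0 RPM in LLC-Chem tumors. It was lower in both LLC-Chem pools without being called (log2 fold change of -0.27 ± 0.13 SE, adjusted p = 0.162, limma). Unc5a was at 18.8 and 18.1 RPM in LLC and at 19.9 and 17.5 RPM in LLC-Chem tumors (adjusted p = 0.939, limma). Unc5c was below the limit for testing, at 1.45 and 0.85 RPM in LLC and 0.40 and 0.20 RPM in LLC-Chem tumors. Dcc, the classical attractive netrin receptor, had 0 reads in all 4 pools, which allows up to 0.105 RPM, and Unc5d had 1 read in 1 pool.

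The Slits fell in part. Slit3 (chromosome 11, 35121224 to 35708507), the most abundant of these secreted Robo ligands per kilobase, measured 65.4 and 85.7 RPM in LLC against 36.0 and 25.7 RPM in LLC-Chem tumors. The groups were well separated, with a fall to 40.9% of the LLC level (log2 fold change of -1.28 ± 0.21 SE, adjusted p = 0.0185, limma). Slit1 was weakly expressed, at 2.10 and 2.85 RPM in LLC and 0.85 and 0.60 RPM in LLC-Chem tumors, and its log2 fold change was -1.28 ± 0.26 SE (adjusted p = 0.029, limma). Slit2 measured 11.8 and 6.15 RPM in LLC and 14.8 and 16.4 RPM in LLC-Chem tumors. Both LLC-Chem pools were higher for Slit2, but it was not called (log2 fold change of 0.83 ± 0.31 SE, adjusted p = 0.102, limma), and its log2 fold change was 0.38 without the second LLC pool. edgeR's likelihood ratio test called Slit2 (adjusted p = 0.0465), while its quasi-likelihood test (adjusted p = 0.0984) and DESeq2 (adjusted p = 0.0518) did not. Per kilobase of exon, Slit3 made up 92.9% and 95.1% of the Slit transcripts in LLC and 89.1% and 85.0% in LLC-Chem tumors.

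Of the Robo receptors, Robo4 (chromosome 9, 37401897 to 37415115), which is largely restricted to endothelial cells, fell from 16.7 and 8.80 to 2.75 and 1.60 RPM. Both LLC-Chem pools stood far below either LLC pool, and the log2 fold change was -2.28 (standard error 0.37, adjusted p = 0.0185, limma). Robo1, the broadly expressed Slit receptor, measured 2.35 and 5.35 RPM in LLC and 1.80 and 1.20 RPM in LLC-Chem tumors, and was not called (log2 fold change of -1.05 ± 0.39 SE, adjusted p = 0.106, limma). edgeR's likelihood ratio test called it (adjusted p = 0.046), while edgeR's quasi-likelihood test and DESeq2 did not. Robo2 (3 to 9 reads per pool) and Robo3 (9 and 7 reads in LLC, 1 and 0 in LLC-Chem) were close to the limit of detection.

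Endothelial markers moved in the same direction as Robo4. Of the 11 on the list (Pecam1, Cdh5, Kdr, Tie1, Tek, Vwf, Emcn, Cldn5, Egfl7, Esam and Clec14a), 9 fell and 0 rose, and their summed level was 249 to 312 RPM in LLC and 56.0 to 91.1 RPM in LLC-Chem tumors. None of them was at 0. Among 6 mural cell markers 5 fell, with sums of 190 to 229 RPM and 43.3 to 65.1 RPM. In tumor tissue fewer cells of a type and less RNA per cell cannot be told apart, and the part of these cells in the falls of Robo4 and Plxnd1 was not tested.

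**Figure D3:**
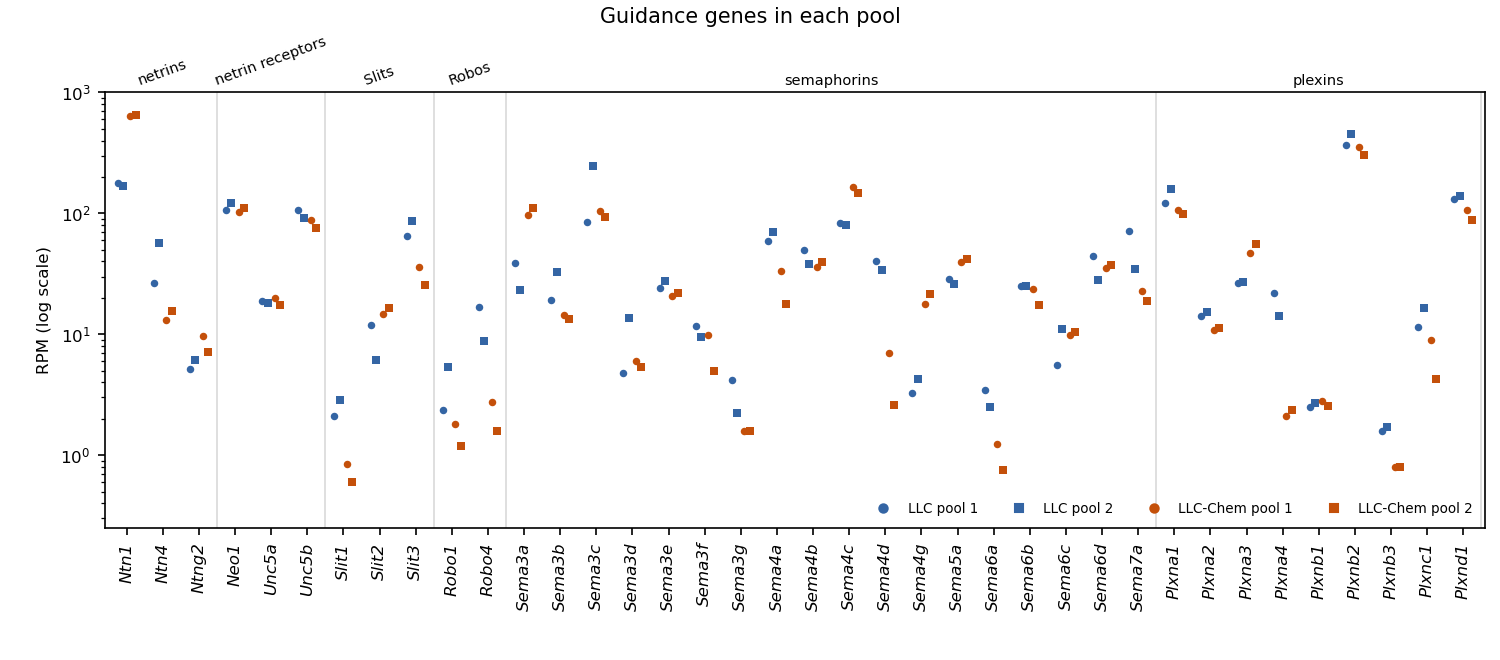
RPM on a log scale (vertical axis) of the 38 guidance genes tested, by family, in each LLC pool (blue) and LLC-Chem pool (orange); circles are first and squares second pools. Ntn1, Sema3a, Sema4c and Sema4g show both orange points above the blue ones, and Sema4d, Plxna4 and Robo4 show them far below.

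Of the 18 semaphorins tested, 4 were called higher and 4 lower (22.2% each, beside 9.54% and 13.5% of all genes). Both LLC-Chem pools were above both LLC pools for 4 (22.2%, beside 33.1% of all genes) and below them for 8 (44.4%, beside 39.3%), and the median log2 fold change was -0.39. In class 3, which is secreted, Sema3a (chromosome 5, 13125414 to 13602565) rose. Its product repels axons and restrains vessel growth through neuropilin 1 and class A plexins. It measured 38.7 and 23.4 RPM in LLC against 97.8 and 110 RPM in LLC-Chem tumors, a 3.35-fold rise with no overlap (log2 fold change of 1.77 ± 0.24 SE, adjusted p = 0.0141, limma).

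None of the other class 3 members was called. Sema3c, a secreted cue that also acts on vessels, was the most abundant of them per kilobase in LLC tumors, but its LLC pools, at 84.1 and 246 RPM, enclosed the LLC-Chem pools, at 105 and 93.4 RPM (adjusted p = 0.42, limma). The log2 fold change of Sema3c was -0.54, and 0.23 without the second LLC pool. Sema3b measured 19.0 and 32.6 RPM in LLC and 14.4 and 13.4 RPM in LLC-Chem tumors and was not called (log2 fold change of -0.82 ± 0.26 SE, adjusted p = 0.0723, limma). DESeq2 called Sema3b (adjusted p = 0.0234), as did edgeR's likelihood ratio test (adjusted p = 0.0276), but edgeR's quasi-likelihood test did not (adjusted p = 0.0822).

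Sema3e, the ligand of plexin D1, measured 24.1 and 27.7 RPM in LLC and 20.9 and 22.0 RPM in LLC-Chem tumors (adjusted p = 0.193, limma). Sema3g, which is expressed by endothelial cells, measured 4.20 and 2.25 RPM in LLC and 1.60 RPM in each LLC-Chem pool (log2 fold change of -0.78, adjusted p = 0.12, limma). Sema3d, at 4.75 and 13.6 RPM in LLC and 6.05 and 5.35 RPM in LLC-Chem tumors, overlapped between the groups. So did Sema3f, at 11.7 and 9.44 RPM in LLC and 9.94 and 5.00 RPM in LLC-Chem tumors.

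Class 4 semaphorins are membrane-bound ligands of class B plexins and of several receptors on immune cells, and of the 5 tested members 2 were called higher and 2 lower, beside 9.54% and 13.5% of all genes. Sema4c (chromosome 1, 36548639 to 36558349), a ligand of plexin B2, measured 83.1 and 80.7 RPM in LLC against 165 and 148 RPM in LLC-Chem tumors. The pools of each group agreed closely, and the rise was 1.91-fold (a log2 fold change of 0.93 ± 0.10 SE, adjusted p = 0.0117, limma). Sema4g (chromosome 19, 44989101 to 45003397) had the largest rise of all guidance genes, from 3.25 and 4.25 to 17.9 and 21.6 RPM (5.27-fold, log2 fold change of 2.26 ± 0.20 SE, adjusted p = 0.0093, limma).

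Sema4d (chromosome 13, 51685529 to 51793747), known as CD100 and abundant on lymphocytes, had the largest fall on the log2(RPM + 0.5) scale. It measured 40.0 and 34.1 RPM in LLC against 7.0 and 2.60 RPM in LLC-Chem tumors. No LLC-Chem pool came near an LLC pool (log2 fold change of -2.96 ± 0.41 SE, adjusted p = 0.0144, limma), although the value was -3.60 without the first LLC-Chem pool and -2.32 without the second. Sema4a, which is carried by dendritic cells and acts on T cells, fell from 58.8 and 70.6 to 33.5 and 17.9 RPM (log2 fold change of -1.38 ± 0.29 SE, adjusted p = 0.0312, limma). Without a trend in limma's eBayes the adjusted p of Sema4a was 0.0542.

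Sema4b did not change past the threshold, at 49.3 and 38.4 RPM in LLC and 36.2 and 39.9 RPM in LLC-Chem tumors (adjusted p = 0.376, limma). Sema4f was under the limit for testing, at 0.65 and 0.45 RPM in LLC and 0.15 RPM in each LLC-Chem pool. Summed per kilobase of exon, the class stood at 43.4 and 42.4 in the LLC pools and 51.4 and 45.5 in the LLC-Chem pools. The shares of its members moved more. Sema4c took 41.7% and 41.4% of it in LLC and 69.7% and 70.9% in LLC-Chem tumors, while Sema4d went from 12% and 10.5% to 1.77% and 0.744%.

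Sema7a, a membrane-anchored semaphorin that binds plexin C1 and beta 1 integrins, measured 71.3 and 34.9 RPM in LLC against 22.6 and 18.7 RPM in LLC-Chem tumors. The groups did not overlap, but the LLC pools were unequal (log2 fold change of -1.26 ± 0.33 SE, adjusted p = 0.0478, limma), and the log2 fold change was -0.75 without the first LLC pool. Over the 12 alternatives that kept the 4 pools its adjusted p ran from 0.000697 to 0.166 (limma, edgeR and DESeq2).

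In class 5, Sema5a, which carries thrombospondin repeats, rose from 28.5 and 26.2 to 39.9 and 42.1 RPM (1.5-fold, log2 fold change of 0.58 ± 0.12 SE, adjusted p = 0.027, limma). Sema5b stayed at 1 to 9 reads per pool. In class 6, whose members are transmembrane ligands of class A plexins, Sema6a was weakly expressed and fell from 3.45 and 2.50 to 1.25 and 0.75 RPM (log2 fold change of -1.22 ± 0.29 SE, adjusted p = 0.0371, limma). The other 3 members were not called. Sema6b was at 24.8 and 25.1 RPM in LLC and 23.5 and 17.4 RPM in LLC-Chem tumors (adjusted p = 0.247, limma). Sema6c was at 5.55 and 11.1 RPM in LLC and 9.94 and 10.3 RPM in LLC-Chem tumors (adjusted p = 0.448, limma). Sema6d was at 44.1 and 27.9 RPM in LLC and 35.1 and 37.5 RPM in LLC-Chem tumors (adjusted p = 0.887, limma).

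Leukocyte markers were also lower beside Sema4d, Sema4a and Sema7a. The list held 15 markers, of which 12 were tested, and 7 of these fell (Csf1r, Ptprc, Itgam, Cd14, S100a8, S100a9 and Ncr1) while 0 rose. Their summed level, mostly Lyz2, was 3797 to 6700 RPM in LLC and 1466 to 3029 RPM in LLC-Chem tumors. The T cell markers Cd3e and Cd8a were under 1 RPM in every pool, and Cd4 at or below 2.05 RPM. Their part in the falls of these semaphorins was not tested.

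Of the 9 plexins, the signalling receptors of the semaphorins, 1 was called higher (11.1%) and 2 lower (22.2%), beside 9.54% and 13.5% of all genes. For 7 of the 9 both LLC-Chem pools were below both LLC pools (77.8%, beside 39.3% of all genes). Plxna4 (chromosome 6, 32144268 to 32588192), a receptor for Sema3a and Sema6a, fell from 21.8 and 14.3 to 2.10 and 2.35 RPM. This is 12.3% of the LLC level, with no overlap and nearly equal LLC-Chem pools (log2 fold change of -2.74 ± 0.25 SE, adjusted p = 0.0093, limma). Plxna3 (chromosome X, 74329066 to 74344689), another class A receptor, rose from 26.7 and 27.2 to 47.2 and 55.6 RPM (1.91-fold, log2 fold change of 0.91 ± 0.13 SE, adjusted p = 0.0143, limma). The most abundant class A plexin per kilobase, Plxna1, measured 122 and 158 RPM in LLC and 106 and 99.4 RPM in LLC-Chem tumors and was not called (log2 fold change of -0.43 ± 0.14 SE, adjusted p = 0.0825, limma). Plxna2 was at 14 and 15.2 RPM in LLC and at 10.8 and 11.2 RPM in LLC-Chem tumors (adjusted p = 0.103, limma).

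Plxna4 is known from neurons, and the neuron markers were examined beside it. Tubb3 fell from 25.8 and 15.8 to 2.80 and 2.20 RPM (log2 fold change of -2.80, adjusted p = 0.0101, limma). The defining neuronal markers Rbfox3, Snap25, Syt1 and Stmn2 were under 1 RPM in every pool, and none of the 3 Schwann cell markers tested was called.

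Plxnb2, the receptor of Sema4c, Sema4d and Sema4g in many tissues, was the most abundant plexin per kilobase, at 364 and 453 RPM in LLC and 351 and 303 RPM in LLC-Chem tumors (log2 fold change of -0.31 ± 0.15 SE, adjusted p = 0.173, limma). It made up 54.6% to 56.9% of the plexin transcripts per kilobase of exon in all 4 pools. Plxnb1 was low and even, at 2.50 and 2.70 RPM in LLC and 2.80 and 2.55 RPM in LLC-Chem tumors (adjusted p = 0.912, limma). Plxnb3 was lower still, at 1.60 and 1.70 RPM in LLC and 0.80 RPM in each LLC-Chem pool (log2 fold change of -0.73 ± 0.23 SE, adjusted p = 0.0704, limma), and was called by the likelihood ratio test of edgeR (adjusted p = 0.0327) and without a trend in eBayes (adjusted p = 0.0299, limma). The quasi-likelihood test (adjusted p = 0.0632, edgeR) and DESeq2 (adjusted p = 0.17) did not call Plxnb3. Plxnd1, a plexin of endothelial cells and the receptor of Sema3e, fell modestly, from 132 and 140 to 106 and 88.3 RPM (log2 fold change of -0.49 ± 0.12 SE, adjusted p = 0.043, limma). That call was lost with TMM scaling (adjusted p = 0.0563, limma) and with edgeR's quasi-likelihood test (adjusted p = 0.0588), and Plxnd1 was called in 5 of the 12 alternatives that kept the 4 pools, with adjusted p from 0.0229 to 0.133 (limma, edgeR and DESeq2). Plxnc1, the receptor of Sema7a, measured 11.4 and 16.5 RPM in LLC and 8.95 and 4.25 RPM in LLC-Chem tumors and was not called (log2 fold change of -1.09 ± 0.37 SE, adjusted p = 0.0834, limma), but DESeq2 called it (adjusted p = 0.042). The likelihood ratio test (adjusted p = 0.052) and the quasi-likelihood test (adjusted p = 0.112) of edgeR did not call Plxnc1.

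**Figure D4:**
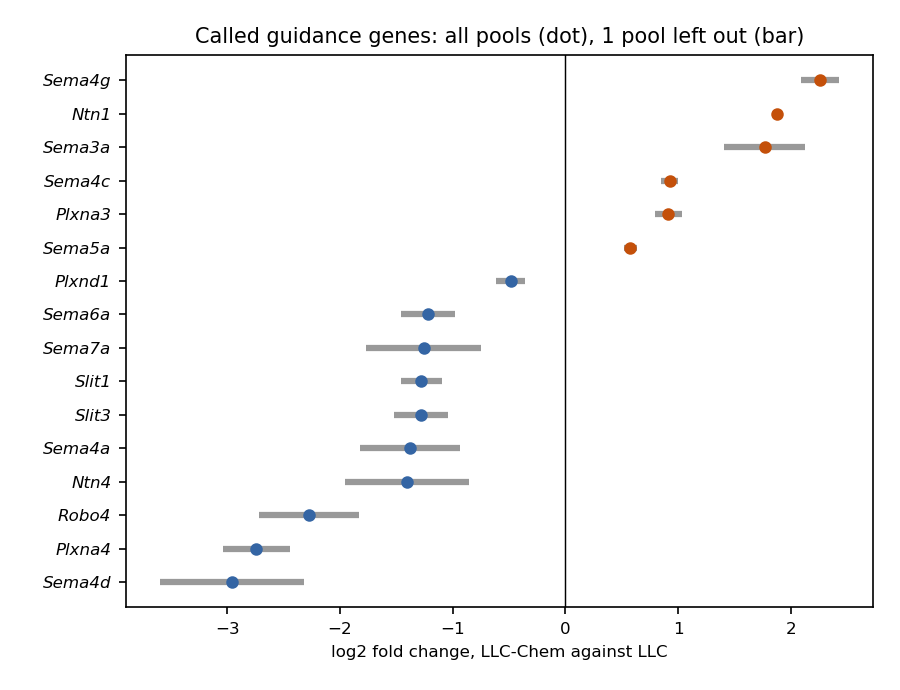
Log2 fold change of LLC-Chem against LLC for the 16 called guidance genes with all 4 pools (dots, orange higher and blue lower) and its range when each pool was left out in turn (grey bars). All ranges stay on 1 side of 0; the range is narrow for Ntn1 (1.84 to 1.92) and wide for Ntn4 (-1.95 to -0.86) and Sema7a (-1.77 to -0.75).

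The co-receptors, other ligands and intracellular effectors of these receptors were taken as a list of 58 partner genes, of which 50 were tested. Of these, 8 were called higher (16%) and 11 lower (22%), beside 9.54% and 13.5% of all genes, with a median log2 fold change of 0.01. Without a trend in eBayes 3 were called higher. The neuropilins, co-receptors of the class 3 semaphorins, were abundant and did not differ past the threshold. Nrp1 measured 137 and 170 RPM in LLC and 169 and 142 RPM in LLC-Chem tumors (log2 fold change of 0.02 ± 0.15 SE, adjusted p = 0.928, limma). Nrp2 measured 201 and 171 RPM in LLC and 193 and 216 RPM in LLC-Chem tumors (adjusted p = 0.426, limma).

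The largest rises on the partner list were those of Rgma and Rgmb, repulsive guidance molecules that bind neogenin and act as BMP co-receptors. Rgma went from 33.1 and 39.1 to 115 and 106 RPM (3.07-fold, log2 fold change of 1.61 ± 0.12 SE, adjusted p = 0.00678, limma). Rgmb went from 78.1 and 79.1 to 221 and 256 RPM (3.04-fold, log2 fold change of 1.59 ± 0.11 SE, adjusted p = 0.00665, limma).

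The largest falls were those of Cd72 and L1cam. Cd72, a B cell receptor for Sema4d, went from 27.8 and 11.9 to 3.10 and 2.10 RPM (log2 fold change of -2.62 ± 0.42 SE, adjusted p = 0.0178, limma). Other genes cover 41.6% of the exon bases of Cd72, whose reads may therefore be uncertain. L1cam, an adhesion molecule that takes part in the Sema3a receptor, went from 17.1 and 11.1 to 2.40 and 2.20 RPM (log2 fold change of -2.35 ± 0.25 SE, adjusted p = 0.0116, limma). Fgd5, Flrt3, Crmp1 and Mical2 fell by 1.35, 1.17, 1.05 and 1.02 on the log2 scale, with adjusted p from limma of 0.0301, 0.0447, 0.019 and 0.013.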

How the data were processed

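Paired-end TruSeq reads were aligned to GRCm38 and gene counts converted to RPM, which the authors deposited; the submitters' processing notes name STAR and HTSeq, whose versions are not given in the sources used here, nor is the strand setting. Within a pool all deposited RPM (100%) are whole multiples of 1 step to within 0.1 of a step, as if counts had been scaled to 20000000 reads and rounded up; inverting this on a grid of 1000 reads gave the library sizes and each gene's reads to within 1 read. The file carries gene symbols, and 47224 of 47729 identifiers were found in GENCODE M21, from which positions and exon lengths (union of exons) were taken. Without strand, reads of overlapping genes cannot be separated. Among the called guidance genes, exon bases shared with other genes were at most 7.27% (Sema4c).

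Because the unit is RPM, limma 3.58.1 (R 4.3.3; lmFit, eBayes with trend), and not the count test of the study, served as the main test. It was fitted to log2(RPM + 0.5) of the 13694 genes averaging 1 RPM or more, with Benjamini-Hochberg adjustment, and called 1306 genes higher and 1848 lower; edgeR's quasi-likelihood test on recovered reads called 1551 and 1599. The labels give only pool numbers, so p-values set the group difference against the spread between these pools within a group. Limma moderates that spread with a trend over all genes tested. The pseudocount understates changes of weak genes. With 2 pools against 2, an exact permutation test cannot go below p = 0.33. Alternatives were other pseudocounts, scalings and filters, eBayes without trend, the replicate block, each pool left out, and edgeR 4.0.16 and DESeq2 1.42.0 on the recovered reads; the crossed block was added after the data were seen. Pools of a group differed beyond sampling noise (chi-square per gene 59.3 and 24.4). Scripts were tested on simulated data. The guidance genes and all lists were chosen with earlier results of these data known. All guidance genes may be named; of the partners, the neuropilins and the 8 called ones with the largest change are.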

Additional observations from a re-analysis of the deposited data

How the results depend on the processing

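With 1 exception, the counts of called guidance genes, 6 higher and 10 lower, stayed within 1.5 times of these values with all 4 pools. They ran from 5 to 7 higher and 7 to 14 lower. The exception was the test of every gene above 0, where limma called 0 and 0 of the guidance genes, 0 and 0 of the partners, and 1 of all 26260 genes. At an unadjusted p under 0.05 (limma), 6 of 45 guidance genes were then higher and 15 lower. For the partners this was 11 and 16 of 57, and over all genes 3394 and 4003 of 26260. Leaving out any 1 pool, which leaves 1 group with a single pool and 1 residual degree of freedom, took away all calls by limma for all 4 counts. The partner counts, 8 and 11, became 3 higher without a trend in eBayes, and 4 and 7 with the replicate block; the cause was not tested. Over all genes the likelihood ratio test of edgeR called 2006 higher and 2299 lower, and the replicate block 549 and 1064. Same-numbered pools did not deviate together (correlation -0.14 over 13694 genes), so the numbers are not taken to pair the pools; the replicate block gave 5 guidance genes higher and 7 lower (not called were Sema5a, adjusted p = 0.0647, Slit1, 0.0592, Sema4a, 0.0501, and Plxnd1, 0.0864, limma), and the crossed block, added after seeing the data, 6 and 14. TMM and median-of-ratios scaling moved the median of all genes by under 0.1. No called guidance gene changed sign in any alternative. Among those not called, the sign turned for 6 when 1 pool was left out, with log2 fold changes over the 4 such fits from -0.023 to 0.091 for Plxnb1, -1.31 to 0.23 for Sema3c, -1.19 to 0.24 for Sema3d, -0.12 to 0.82 for Sema6c, -0.28 to 0.37 for Sema6d and -0.074 to 0.11 for Unc5a. With lengths of the longest transcript, 32 instead of 30 guidance genes reached 1 RPM per kilobase. Depth limits Dcc, Ntn5, Unc5d, Ntng1, Robo2, Robo3 and Sema5b, each at 9 reads or fewer per pool.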

Other observations

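Of the 7 class 3 semaphorin genes, 4 lie on chromosome 5 of GRCm38 between 12383385 and 17730268, in the order Sema3d, Sema3a, Sema3e and Sema3c. Sema3a was called higher in LLC-Chem tumors (log2 fold change 1.77), while the class 3 genes on either side of it, Sema3d (-0.48) and Sema3e (-0.26), were not called. Sema3b and Sema3f both lie on chromosome 9 (107597674 to 107609229 and 107681500 to 107710475), and both had lower means in LLC-Chem tumors (53.8% and 70.7% of the LLC mean) without being called. Robo4 and Robo3 lie close together on chromosome 9 (37401897 to 37415115 and 37415669 to 37433246). Robo4 fell to 17.1% of its LLC mean, and Robo3 had 16 reads in the LLC pools together and 1 in the LLC-Chem pools, too few for a test.

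Among lymphatic endothelial markers, which were listed beside the guidance genes, Lyve1 went against the other endothelial markers. Its rise was from 22.4 and 18.1 to 177 and 120 RPM (log2 fold change of 2.83, adjusted p = 0.00665, limma), while Flt4 and Pdpn fell and Prox1 was at 0.05 to 0.30 RPM. The summed level of the 4 markers, mostly Pdpn and Lyve1, was 169 to 180 RPM in LLC and 216 to 275 RPM in LLC-Chem tumors. Of the 5 fibroblast markers, 2 fell and 1 rose, with sums of 11800 to 20339 RPM and 6870 to 8559 RPM. The sum is mostly Col1a1 and Col1a2, which fell, while Dcn, Lum and Pdgfra were higher in both LLC-Chem pools (Pdgfra was called) and the median log2 fold change of the 5 was 0.72. The adipocyte list had 1 of 3 tested markers higher (sums of 19.99 to 28.0 RPM and 14.2 to 39.7 RPM). The skeletal muscle list had 1 of 1 higher, with Ckm and Myh4 at 0 in all pools (2.35 to 3.10 RPM and 4.15 to 5.35 RPM). The 1 keratinocyte marker tested was not called (2.90 to 4.45 RPM and 2.10 RPM). The neuron sums were 16.9 to 27.0 RPM and 2.55 to 3.20 RPM, and the Schwann cell sums 61.6 to 94.9 RPM and 70.3 to 87.1 RPM.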
